A study of Rattus norvegicus with 12 samples.

Results

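The comparison described here sets β-synuclein-reactive CD4+ T cells sorted from the meninges of the brain against the same kind of cells sorted from blood. Its members are 6 of the 12 libraries of the series, 3 from each tissue, chosen by the genotype and tissue given in the sample labels. All 6 come from LEW/Crl rats, and the cells of both groups carry the transgene labelled b-syn TCR Tg. They were collected on day 3 after being injected into a vein. The other libraries are 3 from the brain parenchyma with that genotype, whose titles end in 4 where the rest have 3, and 3 from blood with wild-type genotype (labelled wt). The labels do not say what that digit means, which promoter drives the transgene, the age of the animals, or whether each replicate is a separate animal. P-values therefore cover no more than the scatter of these samples, and that scatter may be technical. Kits of both TruSeq and NEBNext type are named for every sample, without stating which was used for each library. A difference in kit between meninges and blood could therefore not be told apart from tissue.

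The meninges are the membranes that enclose the brain, and they hold blood vessels and antigen-presenting cells that lymphocytes meet before they reach the nervous tissue. β-Synuclein is a protein of nerve terminals, and a T cell receptor specific for it lets the cell recognise its fragments on MHC molecules. When that receptor is engaged, T cells switch on early transcription factors, then cytokines and surface receptors, while programmes of quiescence and lymphoid recirculation are switched off. The deposited files list 32754 genes by Ensembl rat identifier and do not pair them with names. The reference table used here held 0 such identifiers, so genes are described by level, direction and size of change. The identity of the sorted cells was not checked against marker genes, and no list of activation, cytokine, migration or other cell type genes was tested. No sequence is shown for the same reason.

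Library totals ran from 16848739 to 21229957 counts in blood and from 16643832 to 32843166 counts in the meninges. Pairs of replicates differed by more than sampling noise, with chi-square values of 14.8 to 58.4 per degree of freedom over genes. Levels are given as CPM, counts scaled to a common library size.

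More genes were higher than lower in the meninges. Of 11809 genes tested, 769 passed an adjusted p of 0.05 in edgeR's quasi-likelihood test, a background of 6.51% called, and 562 of them rose (4.76%) while 207 fell (1.75%). Rises also ran to larger sizes. Among the genes that rose, 348 (61.9%) did so by more than 2-fold, 152 (27.0%) by more than 4-fold, 81 by more than 8-fold and 32 by more than 32-fold. Among the genes that fell, 79 (38.2%) did so by more than 2-fold, 4 by more than 4-fold and 1 by more than 8-fold. The fall over 8-fold was of a low gene, at 1.97 CPM in blood and 0.0766 CPM in the meninges. The 3 falls of 4- to 8-fold had medians of 0.919 and 0.194 CPM, though 1 of them was at 282 CPM in blood. The numbers of calls rested on all libraries. Without blood replicate 2 there were 286 rises and 73 falls, without blood replicate 3 there were 307 and 104, without meninges replicate 2 there were 287 and 59, and without meninges replicate 3 there were 308 and 92. Omission of blood replicate 1 or meninges replicate 1 left 493 and 447 rises, and 113 and 130 falls. A fit of only the 6 libraries called 789 rises and 466 falls, and DESeq2 called 853 and 485.

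Among called genes, the excess of rises held at every expression level. Genes were sorted by their mean level over the 6 libraries into 4 classes. Over 100 CPM, 178 of 2417 genes rose (7.36%) and 72 fell (2.98%), with a median rise of 1.98-fold and a median fall of 1.58-fold. From 10 to 100 CPM, 243 of 5643 genes rose (4.31%) and 100 fell (1.77%), with medians of 2.01-fold and 1.74-fold. These classes held nearly all counts. The genes over 100 CPM took 74.7% ± 0.727 of the counts in blood and 75.3% ± 0.485 in the meninges (SD, n = 3), and those from 10 to 100 CPM took 24.1% ± 0.65 and 23.5% ± 0.478.

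In the class of 1 to 10 CPM, 111 of 2452 genes rose (4.53%) and 31 fell (1.26%), and the median rise was 4.28-fold. Under 1 CPM, 30 of 1297 genes rose (2.31%) and 4 fell (0.308%). The median rise there was 15.5-fold as fitted, and 10.8-fold with genes that had 0 counts in blood set at their lower bound. The median standard error of the log2 fold change was 0.53 under 1 CPM and 0.14 over 100 CPM, so a low gene had to change more to be called. The smallest rise called was 2.82-fold in the lowest class and 1.33-fold in the highest. Rises outnumbered falls in every class in all fits tried, 17 for each class under 10 CPM and 18 for each class above it. With any 1 of the 6 libraries left out, rises numbered 13 to 19 under 1 CPM, 52 to 87 from 1 to 10 CPM, 125 to 208 from 10 to 100 CPM and 86 to 183 over 100 CPM. Falls then numbered 0 to 1, 3 to 12, 29 to 72 and 27 to 45 in the same order. The counts also depended on the parenchyma libraries that share the fit. With parenchyma replicate 3 left out there were 48 rises and 10 falls under 1 CPM, and 49 falls from 1 to 10 CPM. With parenchyma replicate 2 left out there were 151 falls from 10 to 100 CPM. Rises over 100 CPM moved less, to 180, 202 and 202 without parenchyma replicates 1, 2 and 3.

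**Figure D1:**
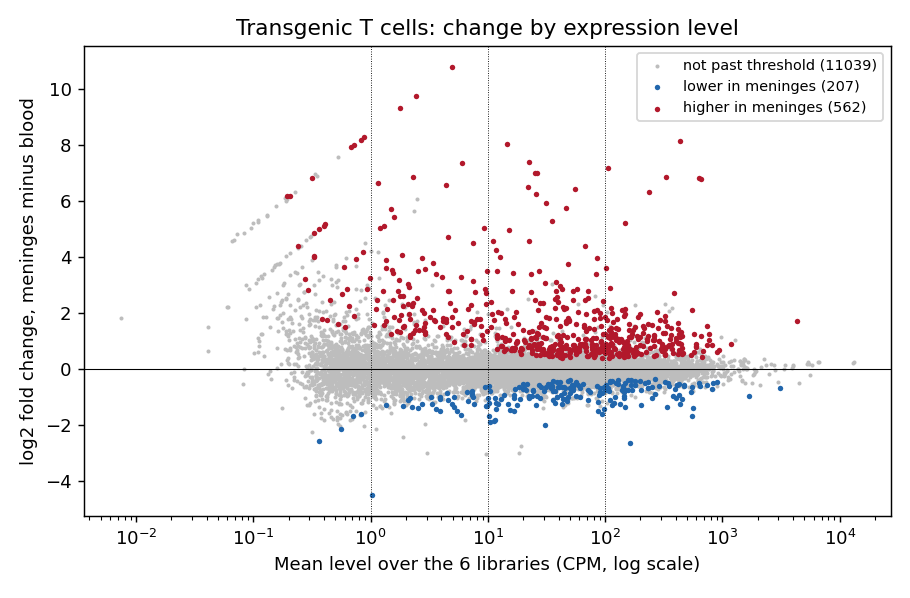
Each point is a tested gene, with its mean level over the 3 blood and 3 meningeal transgenic libraries in CPM (log axis) against its log2 fold change, meninges minus blood. Red points are the 562 genes that rose and blue points the 207 that fell, dotted lines mark the class limits of 1, 10 and 100 CPM, and rises reach larger sizes than falls at every level.

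**Figure D2:**
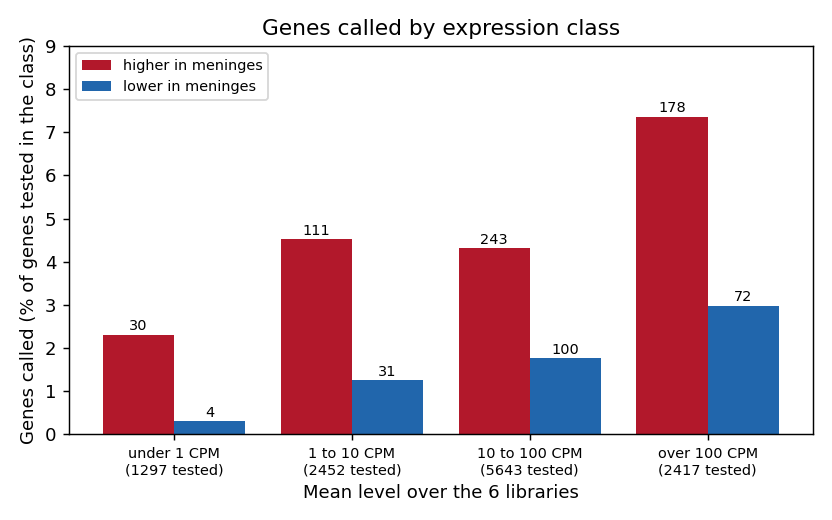
Bars give the percentage of tested genes called higher (red) or lower (blue) in the meninges, by mean level over the 6 libraries, with the number of genes above each bar. The share that rose goes from 2.31% under 1 CPM to 7.36% over 100 CPM, and the share that fell from 0.308% to 2.98%.

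Counts of genes whose libraries did not overlap gave a more even picture. Every meningeal library lay above every blood library in 1974 tested genes (16.7%), and below in 1739 (14.7%), together 31.4%. The directions differed most under 1 CPM, where 15.7% of genes lay above and 7.63% below. From 1 to 10 CPM the shares were 15.1% and 15.4%. A gene under 1 CPM may have been kept by the filter through the parenchyma libraries alone.

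Genes that rose started from all levels in blood. Of the 562, 91 (16.2%) had a mean under 1 CPM in blood, where 11.8% of all tested genes lay. Their median was 0.261 CPM in blood and 2.62 CPM in the meninges, and the highest meningeal mean among them was 51.6 CPM. In the meninges they were thus mostly low-abundance transcripts. The 106 genes that started from 1 to 10 CPM had medians of 3.31 CPM in blood and 13.9 CPM in the meninges, with a highest meningeal mean of 866 CPM. The 245 genes from 10 to 100 CPM had medians of 34.9 and 75.5 CPM, and the 120 genes over 100 CPM had medians of 178 and 380 CPM. Genes that fell were seldom low in blood: 83 of 207 (40.1%) exceeded 100 CPM there, where 20.3% of tested genes lay. A gene low in blood has little room to fall and had to change more to be called. It may also have been kept by the filter through the other tissues. These shares are therefore partly set by the method. The 83 genes started at a median of 214 CPM and stood at 142 CPM in the meninges. The other falls started from 10 to 100 CPM (93 genes) or lower (31 genes).

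Transcripts with 0 counts in all 3 blood libraries made up 10 of the genes that rose. Their summed meningeal counts ran from 27 to 638. With 3 counts over all blood libraries taken as the floor, they were at least 7.49-fold to at least 177-fold higher. The highest of them averaged 9.95 CPM in the meninges. In these bulk samples, a change in the number of cells that carry a transcript and a change in its amount per cell cannot be told apart.

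The breadth of the transcriptome was not distinguishable at this number of libraries. Thinned to 16643832 counts, the blood libraries would hold 14438, 14656 and 14394 genes with at least 1 count, and the meningeal libraries 14951, 15091 and 14639. The meningeal numbers were higher on average, but the groups overlapped, and an exact two-sided permutation test gave p = 0.2, where 3 libraries against 3 can reach 0.1. The 20945 rows that were not tested held between 0.0386% and 0.0454% of the counts in blood and between 0.0387% and 0.0475% in the meninges (exact permutation p = 0.3). That these shares were small follows from the filter, which removes rows with low counts. The shares of both tissues overlapped.

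A limited number of genes carried much of the difference in CPM. The genes that rose gained 49480 CPM in sum over their mean levels in blood, and the top 5 of them held 17.6% of that sum, the top 20 held 33.2% and the top 100 held 69.1%. The genes that fell lost 15180 CPM in sum. The top 5 held 26.4% of the loss, the top 20 held 53.3% and the top 100 held 92.2%. The lists differ in length, and the top 10% of each held a similar share: 56 genes held 54.1% of the gain and 21 genes held 54.5% of the loss. Abundant genes weigh most in such sums. Genes over 100 CPM made up 20.5% of those tested and took 74.7% of the counts in blood. Whether the concentration goes beyond that was not tested.

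**Figure D3:**
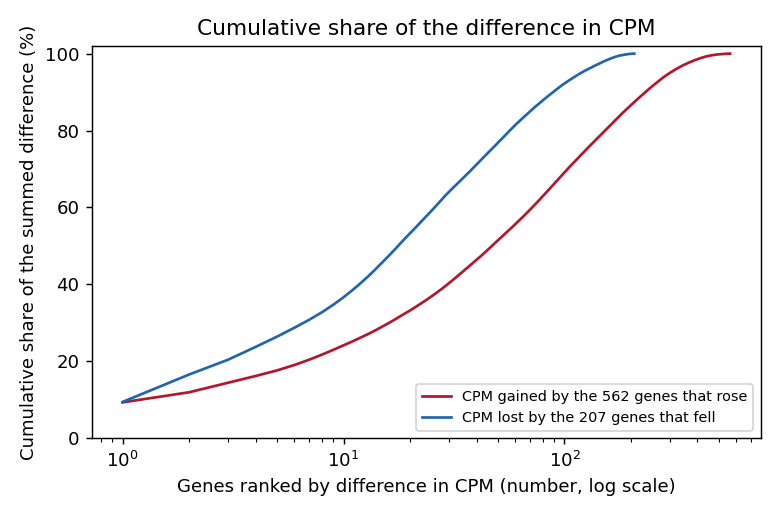
Lines give the cumulative percentage of the summed CPM difference between meninges and blood for genes ranked by their own difference (log axis), in red for the 562 genes that rose and in blue for the 207 that fell. The top 10% of each list, 56 and 21 genes, held 54.1% of the gain and 54.5% of the loss.

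The 10 largest rises among genes of at least 20 CPM reached moderate or high levels from low ones. Their means ran from 0.112 to 11.8 CPM in blood and from 28.8 to 1310 CPM in the meninges, and the fold changes from 90.2 to 279. In the parenchyma, these 10 genes averaged 9.61 to 873 CPM, and in wild-type blood 0.0478 to 17.9 CPM. The 10 largest falls under the same rule were 2.55-fold to 6.28-fold. Those genes averaged 22.5 to 847 CPM in blood and 8.21 to 311 CPM in the meninges. In the parenchyma they averaged 7.53 to 210 CPM, and in wild-type blood 29.9 to 1730 CPM. Lower down, between 1 and 20 CPM, the 5 largest rises all had 0 counts in blood and averaged 1.66 to 9.95 CPM in the meninges. The 5 largest falls there ranged from 3.24-fold to 22.6-fold, and the lowest meningeal mean among them was 0.0766 CPM.

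The most abundant rises spanned small and large changes, and the most abundant falls were small. The 5 genes that rose with the highest meningeal levels averaged 1160 to 6650 CPM there and 10.9 to 2030 CPM in blood, and their fold changes ran from 1.62 to 114. The 5 genes that fell with the highest levels in blood averaged 980 to 3790 CPM there and 618 to 2360 CPM in the meninges, with falls of 1.39-fold to 1.94-fold. A call in this range did not need a large change.

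The values of 4 genes show these extremes library by library. ENSRNOG00000012467, the largest rise among genes of at least 20 CPM, was at 2.49, 3.02 and 3.83 CPM in blood replicates 1, 2 and 3. In meninges replicates 1, 2 and 3 it was at 297, 1210 and 1090 CPM. The meningeal libraries lay far above the blood libraries, and replicate 1 was the lowest of them. The log2 fold change was 8.13 (SE 0.57, adjusted p = 6.86e-05 by edgeR), and it stayed between 7.80 and 8.52 and past the threshold in all 17 other settings. Parenchyma replicates 1, 2 and 3 were at 734, 692 and 586 CPM, within the range of the meningeal libraries, and parenchyma minus meninges was -0.37 on the log2 scale (SE 0.41, adjusted p = 0.586 by edgeR). Wild-type blood was at 14.8, 1.12 and 1.13 CPM, with replicate 1 above the other libraries from blood.

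ENSRNOG00000057092 was the most abundant gene that rose. It was at 2790, 1930 and 1380 CPM in blood replicates 1, 2 and 3 and at 6670, 8010 and 5270 CPM in meninges replicates 1, 2 and 3. The groups did not overlap, and the log2 fold change was 1.71 (SE 0.38, adjusted p = 0.0273 by edgeR). The call was lost without blood replicate 2 or 3 or any 1 meningeal library, where the log2 fold change lay between 1.48 and 1.85, and the adjusted p ran from 0.00384 to 0.113 over all settings. The parenchyma libraries, at 6910, 3030 and 2710 CPM, overlapped those of both the meninges and wild-type blood, the latter at 2160, 4260 and 3050 CPM. Parenchyma minus meninges was -0.66 (SE 0.37, adjusted p = 0.266 by edgeR).

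ENSRNOG00000014205 was the largest fall among genes of at least 20 CPM. Blood replicates 1, 2 and 3 were at 236, 283 and 325 CPM and meninges replicates 1, 2 and 3 at 38.6, 47.9 and 47.9 CPM. The log2 fold change was -2.65 (SE 0.43, adjusted p = 0.00554 by edgeR), and the call held in all 17 other settings, at -2.77 to -2.55. In the parenchyma it was lower again, at 19.0, 5.02 and 23.3 CPM, and parenchyma minus meninges was -1.50 (SE 0.42, adjusted p = 0.0395 by edgeR). Wild-type blood, at 354, 550 and 375 CPM, lay above all transgenic libraries.

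ENSRNOG00000018087 was the most abundant gene that fell. It was at 3570, 3410 and 4390 CPM in blood replicates 1, 2 and 3 and at 2820, 2180 and 2070 CPM in meninges replicates 1, 2 and 3, with no overlap. The log2 fold change was -0.68 (SE 0.17, adjusted p = 0.0413 by edgeR). This call was close to the threshold: it was kept in 9 of 17 other settings, with adjusted p between 0.0015 and 0.179, and lost without any 1 of blood replicates 1, 2 and 3 or meninges replicates 2 and 3, at -0.58 to -0.76, and also with no filter on low counts, at -0.69. The parenchyma was at 811, 964 and 1100 CPM, below all meningeal libraries, and parenchyma minus meninges was -1.30 (SE 0.17, adjusted p = 0.00184 by edgeR). Wild-type blood was at 5050, 3940 and 4450 CPM, overlapping the transgenic blood libraries. The contrast of parenchyma and meninges from which these values come called 1828 of 11809 genes (15.5%), of which 945 were higher in the parenchyma (8.0%) and 883 lower (7.48%). It shares its meningeal libraries with the comparison of meninges and blood.

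**Figure D4:**
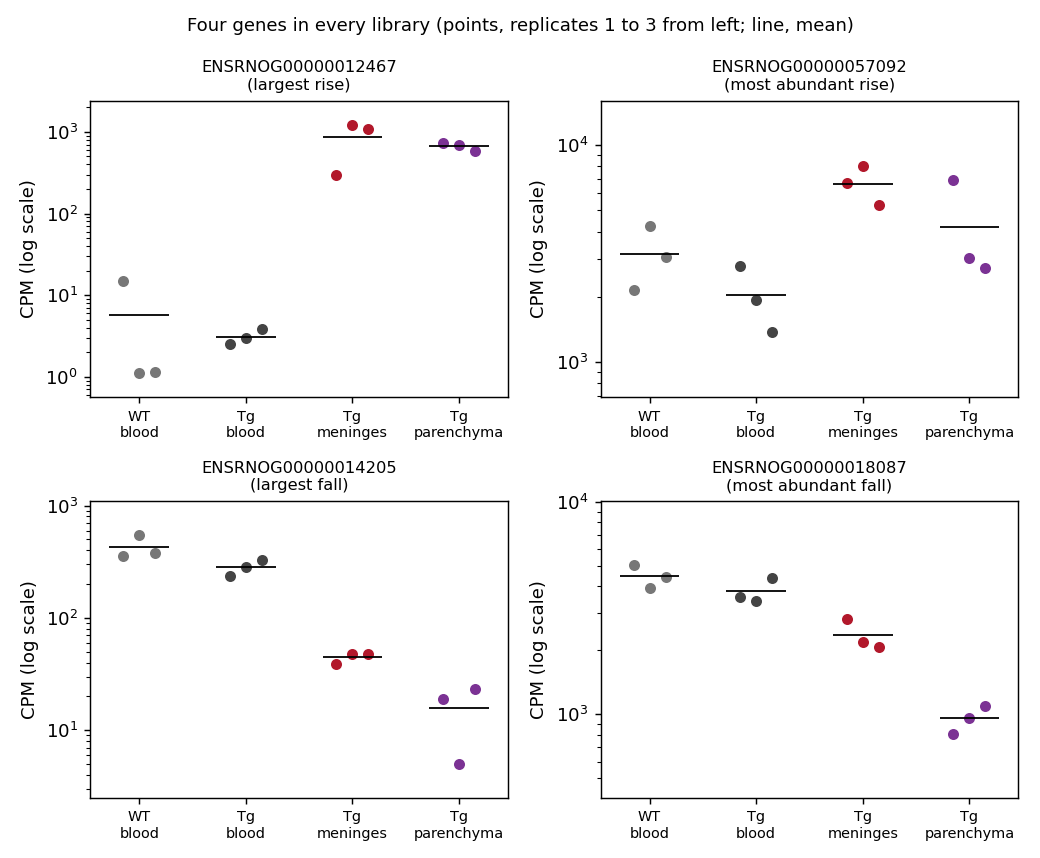
Each panel gives the CPM (log axis) of 1 gene in the 3 libraries of each group, as points for replicates 1 to 3 from left to right with a line at the mean (WT, wild-type, and Tg, transgenic). The meningeal points of ENSRNOG00000012467 lie at 297 to 1210 CPM above blood points of 2.49 to 3.83 CPM, and those of ENSRNOG00000014205 at 38.6 to 47.9 CPM below blood points of 236 to 325 CPM.

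The 3 meningeal libraries did not carry the rises equally. Of the 562 genes that rose, 281 were highest in meninges replicate 2 among the meningeal libraries, 160 in replicate 3 and 121 (21.5%) in replicate 1. Over all 11809 tested genes, replicate 2 was highest in 32.7% and replicate 1 in 37.9%. Meninges replicate 1 was the lowest of the 3 in 54 of the 81 rises over 8-fold (66.7%), and in 172 of the 267 rises of 2- to 8-fold (64.4%), where 40.1% of all tested genes were lowest in it. All of the 10 largest rises at 20 CPM or more were lowest in that library. The 81 genes took 0.365%, 0.912% and 0.765% of the counts in meninges replicates 1, 2 and 3. Their median log2 difference from the blood mean was 2.85, 3.17 and 3.04 in the same order. These medians differed less between libraries than the summed shares. They include an offset of 0.5 CPM, which shrinks rises from low levels. The median level of the 81 genes was 0.335, 0.418 and 0.3 CPM in transgenic blood replicates 1, 2 and 3.

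Over all genes that fell, the median log2 difference from the blood mean was -0.83, -0.81 and -0.79 in meninges replicates 1, 2 and 3. The 79 falls over 2-fold were less even, at -1.09, -1.27 and -1.08. Replicate 2 was the lowest library in 41 of them (51.9%), where 30.0% of all tested genes were lowest in it. The median SD of log2 levels between replicates was 0.135 in the meninges and 0.146 in blood for the genes that fell, 0.204 and 0.187 for those that rose, and 0.160 and 0.183 for all tested genes. In blood, 293 of the genes that rose (52.1%) were highest in replicate 1, against 35.7% of all tested genes. Their summed share was 4.32% in blood replicate 1, 3.96% in replicate 2 and 3.70% in replicate 3, and 7.68% to 9.45% in the meningeal libraries. These libraries chose the genes, so the sums describe the sets and test nothing.

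The called genes were then followed in the libraries of the other groups. Wild-type blood stood near transgenic blood at the median of the genes that rose, as it did for all tested genes. The median log2 difference from the transgenic blood mean was -0.01, 0.02 and -0.05 in wild-type replicates 1, 2 and 3. Over all tested genes it was 0.02, 0.01 and 0.02. Single genes differed in both directions, with quartiles of the genes that rose at -0.36 and 0.4 in wild-type replicate 2. For all genes that fell the median was 0.08, 0.17 and 0.09. The 79 falls over 2-fold stood at 0.19, 0.47 and 0.23, and the 128 smaller falls at -0.02, 0.04 and 0.07. In the parenchyma, the 81 largest rises stood 4.18, 3.43 and 3.99 above the transgenic blood mean in replicates 1, 2 and 3. The 79 larger falls stood at -1.87, -1.61 and -1.59. The transgenic blood libraries also chose these genes, and the parenchyma libraries shared the fit, so these differences describe the sets and test nothing.

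Parenchyma and wild-type blood were compared with each other over the same genes. The difference uses no meningeal or transgenic blood library, but the parenchyma libraries entered the filter and the spread of the fit that called the genes. All 3 parenchyma libraries lay above all 3 wild-type blood libraries in 463 of the 562 genes that rose in the meninges (82.4%), and below in 7. Of all tested genes, 27.6% lay above and 25.9% below. Among the 207 genes that fell in the meninges, 174 (84.1%) lay below and 10 above. For genes called in a fit of only the 6 libraries, which no parenchyma library entered, the shares were lower: 589 of 789 that rose lay above (74.7%) and 312 of 466 that fell lay below (67.0%), beside 26.4% and 26.9% of the 11317 genes tested there. This check was chosen after the data were seen. In the first set of genes, the median log2 difference, parenchyma minus wild-type blood, was 1.36 for the genes that rose, -1.22 for those that fell and 0.03 for all tested genes. These libraries differ in genotype as well as tissue, and in the digit of their titles. The labels name kits of both TruSeq and NEBNext type for every sample, and the kit behind each library is not stated. Tissue, genotype and kit therefore cannot be told apart in these values.

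**Figure D5:**
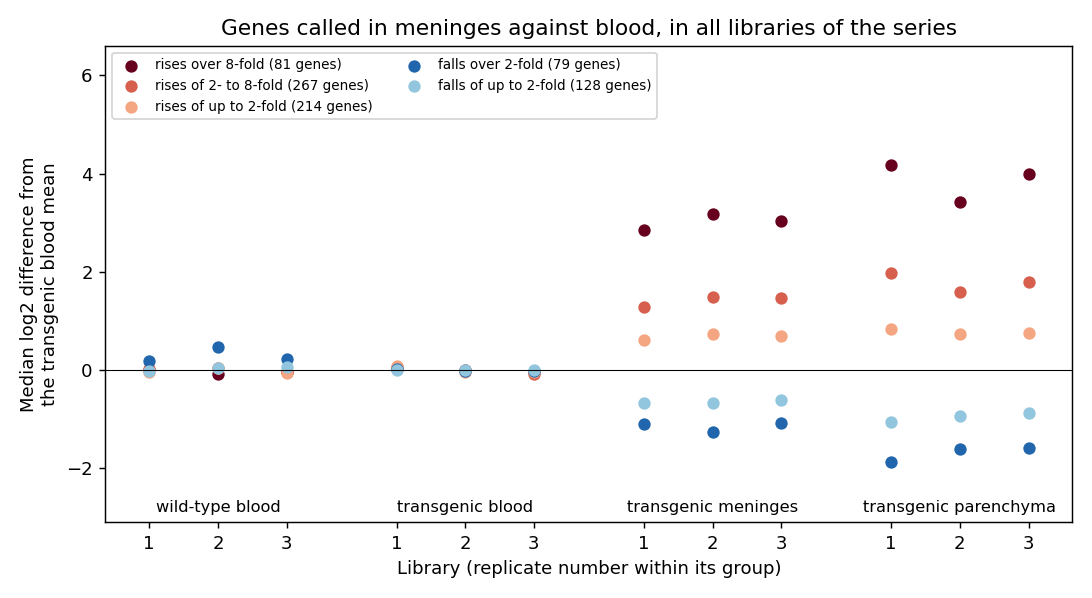
Points give the median log2 difference from the transgenic blood mean for 5 sets of genes called in meninges against blood, by direction and size of change, in each of the 12 libraries. In the parenchyma the rises over 8-fold stand at 3.43 to 4.18 and the falls over 2-fold at -1.87 to -1.59. In wild-type blood all 5 sets lie between -0.08 and 0.47. The transgenic blood libraries also chose the genes, and the offset of 0.5 CPM shrinks rises from low levels.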

How the data were processed

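RNA of sorted T cells was sequenced, and the authors deposited raw counts per gene, 1 file per library. Per the submitters' processing notes, the tools were STAR 2.5, featureCounts 1.5.0-p1, R 3.4.2, DESeq2 1.14.1, FastQC 0.11.5 and bcl2fastq 2.17.1.14, and the build rn6. Their settings, the strand use and the annotation were not given in the sources used here. Overlapping or near-identical genes may share counts.

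Groups came from the labels. The 9 transgenic libraries were fitted together with edgeR 4.0.16 (R 4.3.3): filterByExpr with a minimum count of 10, TMM scaling, two-sided quasi-likelihood F tests with 6 residual degrees of freedom, and Benjamini-Hochberg adjustment over all genes tested, at a threshold of 0.05. The SE is the size of the log2 fold change over the root of its F statistic. CPM uses TMM-scaled sizes, with wild-type libraries brought to that scale by a joint TMM, and log2 levels of sets use an offset of 0.5 CPM. Libraries were thinned by calculation, as an expected number of genes. DESeq2 1.42.0 and limma 3.58.1 were alternatives. The fit was tested on simulated data. Floors cover counting error only.

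Members, lists and rules were chosen with earlier results of these data known. Planned lists of named genes and cell type markers were not tested, since identifiers had no names. The naming rule took the 10 largest changes in each direction at 20 CPM or more in the higher group with no overlap of libraries, the 5 largest at 1 to 20 CPM, and the 5 most abundant. Sets are given as ranges, and by identifier the first of the largest and of the most abundant.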

Additional observations from a re-analysis of the deposited data

How the results depend on the processing

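For meninges against blood, DESeq2 called 1338 genes (853 higher, 485 lower), the fit of only these groups 1255 (466 lower), and a further limit of an absolute log2 fold change above 1 left 427 (348 and 79). With 1 of the 9 libraries left out, calls ran from 346 to 952, rises from 286 to 672 and falls from 59 to 297. Of the 769 genes called, 762 were called by DESeq2, 760 by the fit of only these groups and 344 without meninges replicate 2. Unadjusted p was under 0.05 in 2572 genes. For parenchyma against meninges, 830 of 1828 calls (541 higher, 289 lower) kept the fold limit, the fit of only these groups called 584 higher, and with 1 library left out calls ran from 730 to 2159, those higher from 325 to 1255 and those lower from 405 to 904. The number of genes without overlap moved by less than 1.5 times, and of the counts by expression class, 65 values under other settings moved by more and 67 by less. The causes were not tested, and an omission also leaves a smaller group.

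The replicate numbers in the titles were not used as pairs in the main fit, and whether they mark pairs was not established. Deviations of same-numbered blood and meningeal libraries correlated at 0.273, 0.288 and 0.0513. Blood replicate 1 with meninges replicate 2 gave -0.263, and blood replicate 2 with meninges replicate 1 gave -0.258. The other cross pairs lay between -0.0972 and 0.0528, the highest being meninges replicate 3 with blood replicate 2. With the replicate block, 674 genes were called (520 higher, 154 lower), 599 of them among the 769 of the main fit. In parenchyma against meninges the block called 1407 (686 higher, 721 lower). ENSRNOG00000018087 was then not called, at a log2 fold change of -0.67, and the other 3 genes shown were. The standard error of a log2 fold change was largest in the class under 1 CPM. How much of it came from depth was not tested.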
